A study of Arabidopsis thaliana with 14 samples.

Results

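Soil-grown ibm1-1 seedlings were compared with soil-grown Col-0 seedlings at 15 days. The comparison takes 6 of the 14 samples of the series, and 20082 of the 21912 genes counted passed a filter on low counts. ibm1-1 carries a point mutation in IBM1 in the Col-0 background, and Col-0 is the wild type. Seedlings of both genotypes spent 5 days on plates of half-strength Murashige and Skoog medium and another 10 days in soil before whole plants were taken for RNA, with no treatment beyond these conditions (the labels call the plants 2 weeks old). Each genotype had 3 biological replicates, each a pool of whole seedlings, so root and shoot were read together, and fewer cells of a type cannot be told apart from less RNA per cell. The counts per library were 23309938, 24651600 and 23879077 in ibm1-1, and 27001069, 19957585 and 24413867 in Col-0. Library sizes overlapped between the genotypes, and the first principal component, with 86.2% of the variance, separated them. The number of genes with counts did not overlap, at 20895, 20920 and 21086 in ibm1-1, against 20329, 20302 and 20341 in Col-0.

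IBM1 encodes a histone demethylase of the jumonji family. It removes methyl groups from lysine 9 of histone H3 in the bodies of active genes, and in its absence these genes gain cytosine methylation in the CHG context. The mutant is known for pleiotropic defects in growth and flowers that vary between plants. IBM1 itself (AT3G07610, chromosome 3) had 439, 464 and 466 normalized counts in ibm1-1, against 620, 626 and 593 in Col-0. The genotypes did not overlap, and the log2 fold change of -0.42 ± 0.06 (SE) stayed within the 2-fold limit (adjusted p = 1.18e-06, edgeR's quasi-likelihood test).

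Normalized counts are counts divided by the effective library size and brought to a common size. Differences were tested with edgeR's quasi-likelihood test across all 20082 genes, and a gene was called when its fold change exceeded 2 and its Benjamini-Hochberg adjusted p fell below 0.05. By this rule 5.87% of the genes tested were called higher in ibm1-1 (1178 genes) and 2.39% lower (479 genes), with a median log2 fold change of 0.00 over all genes tested. Every count of family members called below is to be read beside these shares. By an adjusted p below 0.05 alone, 5109 genes were above Col-0 and 5198 below. Family counts by adjusted p alone are to be read beside these 2 numbers. The calls were spread unevenly over expression levels. Among genes averaging below 1 CPM (counts scaled to a common total per library), 29.4% were higher and 7.54% lower, and among those from 1 to 5 CPM 13.7% and 3.1%. From 5 to 50 CPM the shares were 2.93% and 1.63%, and at 50 CPM or more they were 0.879% and 2.54%. Weakly expressed genes thus made up most of the genes called higher, while among the most abundant transcripts more genes fell than rose. A gene below 1 CPM can pass the filter on low counts through 1 genotype alone, so the shares of that class depend on the filter.

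Promoters from 2 of the groups below are shown first, because a known sequence is more frequent in these groups than over all promoters. Storage protein genes of the seed carry the RY element, CATGCA, which seed transcription factors of the B3 type bind. Genes of the cold response carry the core CCGAC, the site of the CBF factors, or the evening element AAAATATCT, a site of clock-associated MYB-like factors. The sequences are the 300 bases upstream of the gene start annotated by RefSeq on TAIR10.1, written 5′ to 3′ on the gene's own strand, with matches on either strand in capitals (RY elements in SESA3, SESA2 and CRU3, CCGAC in LTI78 and COR15A). SESA3 lies at chr4:13611496-13611795 on the plus strand, SESA2 at chr4:13609041-13609340 on the plus strand and CRU3 at chr4:14087256-14087555 on the plus strand. LTI78 lies at chr5:21240417-21240716 on the plus strand and COR15A at chr2:17712331-17712630 on the minus strand.
SESA3: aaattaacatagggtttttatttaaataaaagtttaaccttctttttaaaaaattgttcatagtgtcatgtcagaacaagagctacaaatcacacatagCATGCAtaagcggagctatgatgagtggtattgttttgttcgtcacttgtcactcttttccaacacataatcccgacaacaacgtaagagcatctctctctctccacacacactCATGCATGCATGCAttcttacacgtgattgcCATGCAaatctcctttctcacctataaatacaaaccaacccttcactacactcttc
SESA2: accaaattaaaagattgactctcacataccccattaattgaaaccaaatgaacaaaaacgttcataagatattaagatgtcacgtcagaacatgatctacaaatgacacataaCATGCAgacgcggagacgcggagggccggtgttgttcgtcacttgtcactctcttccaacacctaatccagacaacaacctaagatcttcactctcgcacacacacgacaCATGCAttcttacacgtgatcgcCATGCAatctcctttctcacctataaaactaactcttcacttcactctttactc
CRU3: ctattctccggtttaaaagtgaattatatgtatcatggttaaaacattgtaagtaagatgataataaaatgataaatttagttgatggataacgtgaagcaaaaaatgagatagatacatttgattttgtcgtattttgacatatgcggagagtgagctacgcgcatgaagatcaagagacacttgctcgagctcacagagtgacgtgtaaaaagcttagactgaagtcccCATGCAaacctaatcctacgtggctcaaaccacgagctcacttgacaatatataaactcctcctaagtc
LTI78: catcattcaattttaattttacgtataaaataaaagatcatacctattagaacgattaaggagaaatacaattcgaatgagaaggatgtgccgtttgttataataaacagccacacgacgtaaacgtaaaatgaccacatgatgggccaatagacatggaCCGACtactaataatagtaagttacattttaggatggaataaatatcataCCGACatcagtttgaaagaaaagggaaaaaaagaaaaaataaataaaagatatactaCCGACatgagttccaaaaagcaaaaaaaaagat
COR15A: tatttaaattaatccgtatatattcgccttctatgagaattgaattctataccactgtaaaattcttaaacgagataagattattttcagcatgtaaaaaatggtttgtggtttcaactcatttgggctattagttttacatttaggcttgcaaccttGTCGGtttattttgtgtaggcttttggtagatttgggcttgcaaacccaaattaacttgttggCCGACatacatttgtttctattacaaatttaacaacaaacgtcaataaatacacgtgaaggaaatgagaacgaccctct

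The RY element was present in 12 of the 13 promoters of the seed storage and oil body genes tested (92.3%), against 1885 of the 19999 promoters examined in all (9.43%). The list was made of seed genes, a class known to carry the element, so this share carries no weight of its own. Of the 13 genes, 12 passed the filter on low counts through ibm1-1 alone. The element stood in 14.2% of promoters of genes called higher and in 12.1% of those called lower. CCGAC was present in 12 of 29 promoters of the cold and dehydration regulon (41.4%), against 14.8% of all promoters. This list was made of cold response genes, a class known to carry CCGAC, so this share carries no weight of its own either. It stood in 7 of the 14 regulon members called lower in ibm1-1 and in 5 of the 15 others. LTI78 and COR15A, the members shown above, were among the 7. The evening element was present in 34 of 478 promoters of genes called lower (7.11%), in 31 of 1173 promoters of genes called higher (2.64%) and in 2.94% of all. Within the groups described below it was not more frequent among the genes called lower. In the cold and dehydration regulon it stood in 1 of 14 members called lower and 3 of 15 others. Among evening-phased clock genes it stood in 1 of 4 called lower and 4 of 9 others. SESA3 held 7 RY matches, some of them overlapping, and LTI78 held 3 CCGAC matches. A match describes these letters in this window and not a bound site.

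Genes for seed storage proteins and oil body proteins were transcribed in soil-grown ibm1-1 and were at or near 0 counts in Col-0. Cruciferins and seed albumins are the storage proteins of the Arabidopsis embryo, and oleosins coat its oil bodies. CRU3, a cruciferin, had 550, 516 and 598 normalized counts in ibm1-1 and 0 in each Col-0 library and was at least 525-fold higher against a floor of 3 counts over the genotype. SESA3, an albumin gene, had 324, 341 and 333 in ibm1-1 and 0 in each Col-0 library, at least 315-fold higher. CRA1, another cruciferin, had 435, 424 and 492 in ibm1-1, against 0.92, 1.25 and 4.03 in Col-0, a log2 fold change of 7.67 ± 0.21 (SE). All 3 replicates of ibm1-1 held these transcripts at like levels. The bounds were at least 264-fold for SESA4, 254-fold for SESA2, 173-fold for CRU2, 107-fold for SESA1, 83.1-fold for SESA5, 56.5-fold for the cupin gene AT2G28490, 49.2-fold for OLEO2 and 27.6-fold for PAP85, a vicilin-like protein. OLEO1 had 302 counts over the ibm1-1 libraries and 1 over the Col-0 libraries, a ratio of 277 with a counting interval of 49.3 to 11000. The oleosin gene AT3G01570 was also present in Col-0 and differed less, with a log2 fold change of 1.71.

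Of the 26 genes on the list, 13 were tested and 13 were called higher. Since 12 of them passed the filter on low counts through ibm1-1 alone, the count carries no weight of its own, and the other 13 genes were not analysed here. The fitted median log2 fold change was 9.47, and 7.44 with the genes absent from Col-0 held at their bounds. SESA1 to SESA4 are tandem copies on chromosome 4, and reads could be split between them. A few other genes known from seeds, chosen after their values were seen, differed less. DOG1, a regulator of dormancy, had 78.9, 73.3 and 66.3 normalized counts in ibm1-1, against 129, 156 and 151 in Col-0. ABI5, an abscisic acid regulator of late seed development, had a log2 fold change of -0.68 (adjusted p = 0.00832). LEA4-5, a late embryogenesis abundant protein gene, had one of -0.86, and its relative LEA7 was called lower, a call lost in 4 of the 6 fits that left out a library. EEL, a bZIP factor of the embryo, had one of 1.05, which dropped to 1.00 and lost its call without Col-0 replicate 2. Whether seed tissue or seed coats entered any pool was not tested.

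**Figure D1:**
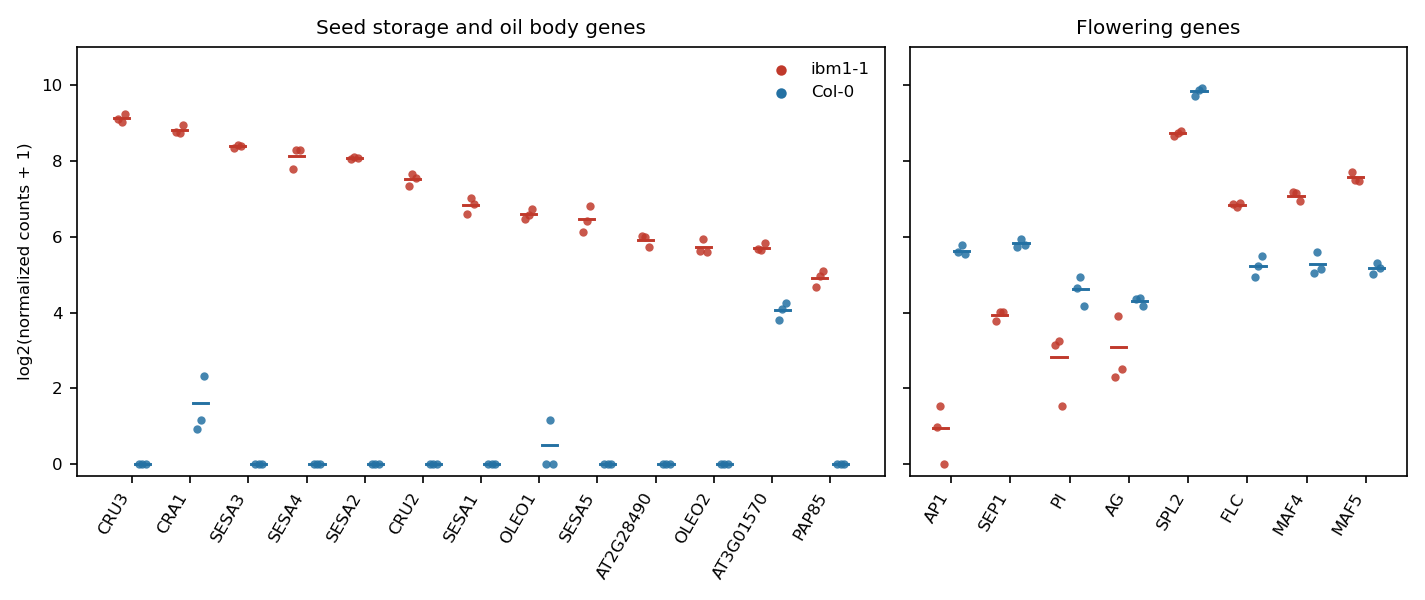
Normalized counts of seed storage and oil body genes (left) and of flowering genes (right), as log2(normalized counts + 1), with ibm1-1 in red left of Col-0 in blue, a point per library and a line at log2 of the mean + 1. All seed genes but AT3G01570 sit at or near 0 in Col-0, AP1 sits near 0 in ibm1-1, and FLC, MAF4 and MAF5 are higher in every ibm1-1 library than in any Col-0 library.

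The flowering genes that were called moved in opposite directions by role. Of 20 floral regulators tested, 3 were called higher and 4 lower, with a median of -0.33. The members called higher were all repressors of flowering. FLC, the main repressor that prolonged cold silences, had 116, 108 and 118 normalized counts in ibm1-1, against 29.5, 36.1 and 44.3 in Col-0, a log2 fold change of 1.64 ± 0.17 (SE, adjusted p = 1.73e-09). Its relatives MAF4 and MAF5 rose by 1.85 ± 0.17 and 2.43 ± 0.15. The members called lower specify floral organs or the move to the adult phase. AP1, which specifies the floral meristem and sepals, had 0.974, 1.88 and 0 normalized counts in ibm1-1, against 46.9, 53.6 and 45.3 in Col-0. Over all libraries this was 3 counts in ibm1-1 and 139 in Col-0, a ratio of Col-0 over ibm1-1 of 50.6 (95% counting interval 17.0 to 248). PI, a petal and stamen gene, had 7.79, 8.46 and 1.89 in ibm1-1, against 23.9, 29.9 and 17.1 in Col-0. AG, a stamen and carpel gene, had 3.89, 14.1 and 4.73 in ibm1-1, against 19.3, 19.9 and 17.1 in Col-0, and its log2 fold change of -1.28 became -0.98 without ibm1-1 replicate 1, below the limit. SPL2, a factor of the transition to the adult phase, fell by 1.12 on the log2 scale. SEP1, a MADS-box gene outside that list that acts in all floral whorls, fell by 1.94 ± 0.24. Among all 36 MADS-box genes tested, 5 were higher and 6 lower.

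AP1 belongs to a small set of genes that were on in one genotype and off in the other. With at least 20 counts in every library of one genotype and at most 3 in every library of the other, 3 genes were on only in Col-0 and 58 only in ibm1-1. Those on only in Col-0 included AP1 and AT5G22430. AT5G22430, annotated as a pollen Ole e 1 allergen and extensin family protein, gave a ratio of Col-0 over ibm1-1 of 77.9 (95% counting interval 26.3 to 381). Of the 58 genes on only in ibm1-1, 11 were seed storage or oil body genes, 11 were annotated pseudogenes and 45 were protein-coding. THI2.1, a thionin, had 298, 245 and 229 normalized counts in ibm1-1, against 0.92, 0 and 0 in Col-0. The protein-coding gene AT4G18900 was at least 105-fold higher in ibm1-1. The set also held NAC085, WRKY62, NAC071, AOX1D, an alternative oxidase of mitochondria, and NDB4, an alternative NADH dehydrogenase.

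A selection of lists, some that moved far as groups and some that barely moved, is set side by side in the plot of their members.

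**Figure D2:**
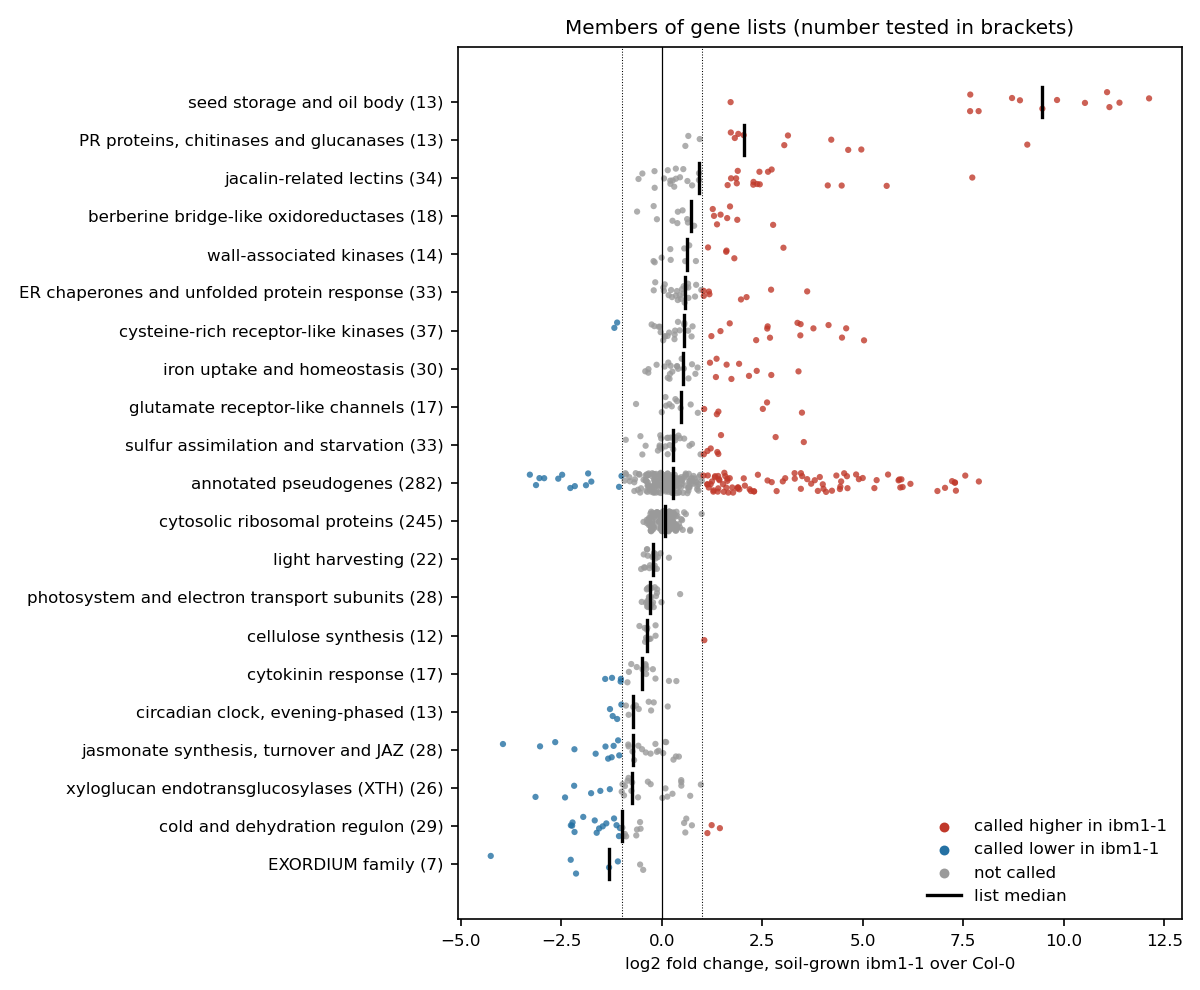
Log2 fold change of each tested member of 21 gene lists, ibm1-1 over Col-0 (x axis), with the list and its number of members tested on the y axis, ordered by median. Red points were called higher in ibm1-1, blue points lower and grey points not called, black bars are list medians, and dotted lines mark a 2-fold change. Points of the ribosomal, light-harvesting and photosystem lists stay inside the dotted lines.

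Cell wall remodelling genes were among the most reduced in ibm1-1. Xyloglucan endotransglucosylases (XTH) cut and rejoin the xyloglucan tethers of the wall, EXORDIUM proteins are wall proteins linked to brassinosteroid-driven cell expansion, and expansins loosen walls during growth. Of 26 XTH genes tested, 6 were called lower and 0 higher, with a median of -0.75. TCH4 had 1237, 1200 and 1206 normalized counts in ibm1-1, against 10784, 11160 and 10235 in Col-0, and was 8.83-fold lower (log2 fold change -3.14 ± 0.05, SE, adjusted p = 1.84e-29). XTH25, its neighbour on chromosome 5, had 49.6, 51.7 and 57.8 in ibm1-1, against 296, 260 and 286 in Col-0. XTH33, XTH15, XTH18 and XTH17 fell as well, with log2 fold changes of -2.18, -1.76, -1.53 and -1.29. By adjusted p alone 16 of the XTH genes were below Col-0 and 5 above, XTH31 furthest at 0.97. Of 7 EXORDIUM family genes tested, 5 were called lower and the median was -1.31. EXO had 436, 445 and 513 in ibm1-1, against 2241, 2381 and 2093 in Col-0, and EXL5 was 4.39-fold lower in ibm1-1.

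Expansins did not move as a group. Of 24 tested, 3 were higher and 3 lower, and the median was 0.34. EXLA1 had 499, 514 and 518 normalized counts in ibm1-1, against 3511, 3453 and 3256 in Col-0, 6.67-fold lower. EXPA16 and EXLA2 also fell, with log2 fold changes of -1.80 and -1.24. EXPA1, in contrast, had 5362, 5710 and 5132 in ibm1-1, against 1884, 2043 and 1899 in Col-0, and EXPA8 had 1056, 1226 and 1078, against 359, 362 and 338. Neither pair overlapped. EXPA1 and EXPA8 rose by 1.48 and 1.67 on the log2 scale. Arabinogalactan and fasciclin-like proteins, glycoproteins of the wall and plasma membrane, counted 1 higher and 4 lower of 42, among them FLA13 at -1.67 ± 0.05. Of 12 cellulose synthesis genes tested CESA9 was the only member called, higher in ibm1-1 at 1.06, a call lost without Col-0 replicate 3 (0.97). The other 11 had an adjusted p below 0.05 and a negative log2 fold change, with a median over the list of -0.36. In the cuticle list KCS1, a synthase of very-long-chain fatty acids, had 1281, 1244 and 1263 in ibm1-1, against 3808, 3961 and 3768 in Col-0, and was the 1 gene called of 30.

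Many genes of the cold and dehydration regulon fell, while the CBF factors that switch them on did not. CBF factors bind CCGAC and induce dehydrins and other protective proteins, named COR, LTI, KIN or ERD, as plants acclimate to cold. Of 29 members tested, 14 were called lower and 3 higher, with a median of -0.98. COR47, a dehydrin, had 4779, 4465 and 4641 normalized counts in ibm1-1, against 21498, 22155 and 21538 in Col-0, and was 4.69-fold lower (log2 fold change -2.23 ± 0.04, SE, adjusted p = 1.05e-26). LTI78 had 3449, 3405 and 3568 in ibm1-1, against 16695, 15635 and 16245 in Col-0. COR15A, a chloroplast protein that protects membranes during freezing, had 1323, 1268 and 1379 in ibm1-1, against 5371, 6063 and 6454 in Col-0. In each of these genes the highest ibm1-1 library lay far below the lowest Col-0 library. COR27, a regulator of both cold response and clock, had 596, 558 and 615 in ibm1-1, against 2746, 2924 and 2827 in Col-0. LTI30, the locus AT4G33980 and ERD10 fell too, with log2 fold changes of -1.95, -1.67 and -1.62. The others called lower (COR15B, RCI2A, ERD7, KIN2, COR413IM1, ERD6 and KIN1) lay between -1.56 and -1.04. KIN1 and KIN2, and COR15A and COR15B, are near-identical neighbours, so their reads may be split.

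The 3 members called higher were transcription factors. CBF1 had 79.8, 102 and 75.7 normalized counts in ibm1-1, against 40.5, 31.1 and 36.2 in Col-0, a log2 fold change of 1.24 ± 0.19. DREB1A, also known as CBF3, had 239, 245 and 236 in ibm1-1, against 103, 112 and 114 in Col-0. RHL41, a zinc-finger factor, rose by 1.45 ± 0.16. The remaining CBF2 had a log2 fold change of 0.61 (adjusted p = 0.00121), under the 2-fold limit. CBF1 and DREB1A were thus above Col-0, and COR47, LTI78 and COR15A below it, in all 3 replicates.

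Calls among clock genes differed in direction between evening-phased and morning-phased genes. The plant clock is a loop in which morning factors such as CCA1 and LHY repress evening genes, and evening factors such as TOC1 and the complex of ELF3, ELF4 and PCL1 (LUX) repress morning genes. Of 13 evening-phased genes tested, 4 were called lower and 0 higher, with a median of -0.71, and 2 were lower when scaled by library size alone. ELF4 had 374, 438 and 373 normalized counts in ibm1-1, against 982, 965 and 949 in Col-0, and PCL1 had 952, 965 and 1068, against 2243, 2383 and 2343. JMJD5 and PRR3 had log2 fold changes of -1.11 and -1.01, PRR3 losing its call without ibm1-1 replicate 1 (-0.96) or Col-0 replicate 1 (-0.96). By adjusted p alone 11 of the 13 were below Col-0, and TOC1 and GI had log2 fold changes of -0.89 and -0.64. Of 14 morning-phased genes, 3 were called higher and 0 lower, with a median of 0.45, and by adjusted p alone 9 were above Col-0 and 4 below. PRR9 had 304, 271 and 315 in ibm1-1, against 122, 115 and 132 in Col-0. EPR1 rose by 1.17 and AT3G12320 by 1.01, and AT3G12320 lost its call without Col-0 replicate 2 (0.94). CCA1 and LHY had log2 fold changes of 0.79 and 0.78. The morning list was not uniform, since RVE2 had one of -0.76. The hour of harvest of each pool is not given in the labels, so a difference in harvest time between the genotypes was not tested.

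**Figure D3:**
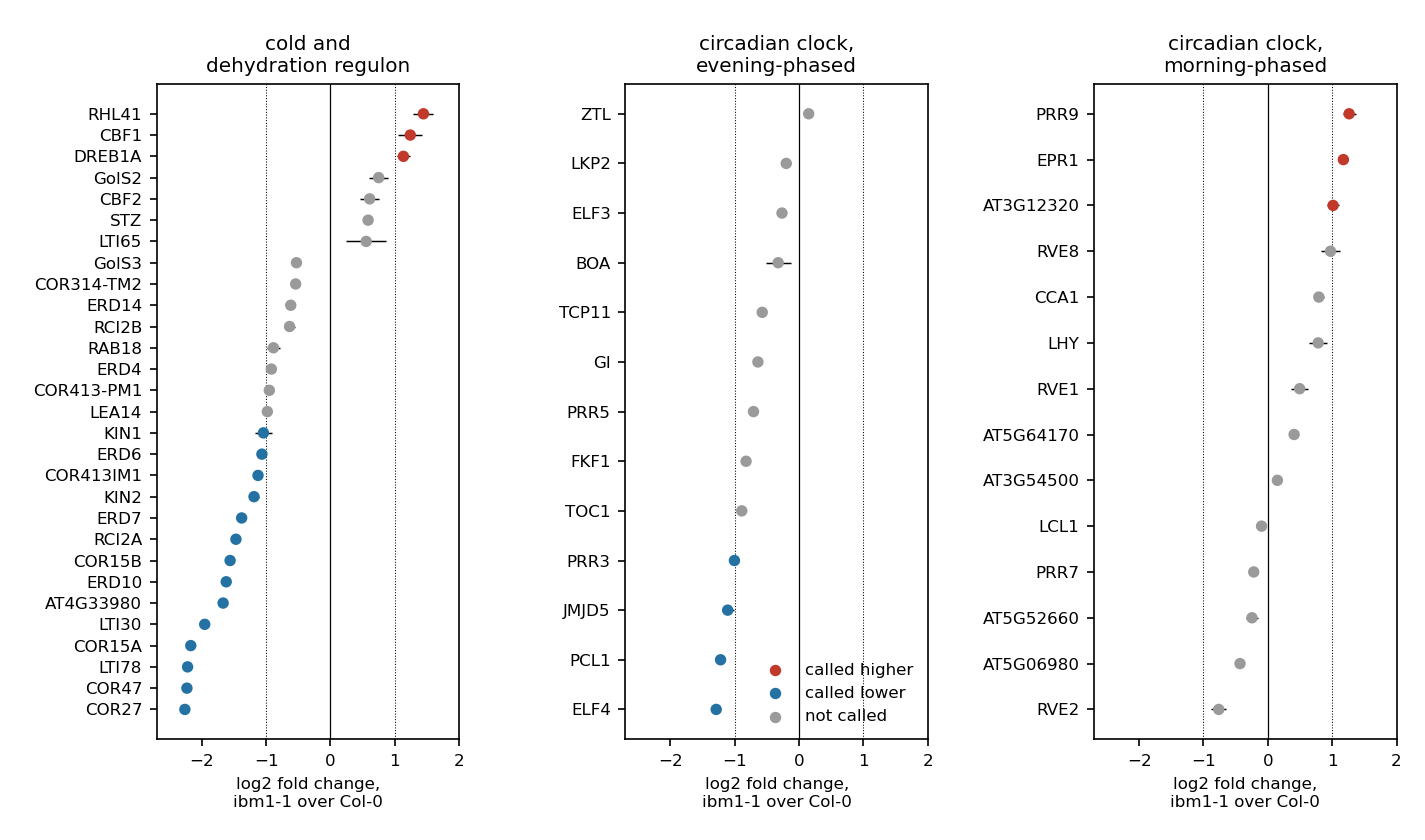
Log2 fold change, ibm1-1 over Col-0, of every tested member of the cold and dehydration regulon and of the evening-phased and morning-phased clock lists, with bars of 1 SE. Red points were called higher, blue points lower, and dotted lines mark a 2-fold change. COR27, COR47, LTI78 and COR15A lie below -2, and CBF1, DREB1A and RHL41 lie above 1.

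Genes of several hormone pathways were called lower more often than higher, though not of all. Primary response regulators mark the output of cytokinin, Aux/IAA proteins that of auxin, and the synthesis gene DWF4 is repressed by brassinosteroid. Of 17 cytokinin response genes, 4 were called lower and 0 higher, with a median of -0.48, and 2 were lower when scaled by library size alone. ARR15 had 191, 194 and 183 normalized counts in ibm1-1, against 500, 513 and 494 in Col-0, and CRF2 fell by 1.24 on the log2 scale. CKX4, a cytokinin oxidase, and RR16 sat at -1.02 each and lost their calls without Col-0 replicate 2 (-0.96 for CKX4 and -0.94 for RR16). Of 24 Aux/IAA genes, 3 were lower and 0 higher. IAA6 had 24.3, 47.9 and 49.2 in ibm1-1, against 207, 213 and 172 in Col-0, and SHY2 had 999, 860 and 934, against 2402, 2662 and 2524. The ranges were far apart for both. SAUR genes, a further auxin-responsive family, counted 6 higher and 3 lower of 55, with a median of 0.21.

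In the brassinosteroid list 4 of 26 were lower and 1 higher. SMT3, a sterol methyltransferase, had a log2 fold change of -1.71 ± 0.05, THE1, a receptor kinase that senses the state of the wall, one of -1.47 ± 0.05 and DWF4 one of -1.38 ± 0.07. Of 18 gibberellin genes 2 were lower, GASA1 with 1253, 1204 and 1191 in ibm1-1, against 2377, 2675 and 2967 in Col-0. Of 23 abscisic acid genes, 2 were higher and 5 lower, with a median of -0.11 that changed sign with library size alone (0.01). TMAC2, a negative regulator of the response, was among those called lower. The receptors PYL5 and PYL4 had 139, 152 and 138, and 591, 668 and 622 normalized counts in ibm1-1, against 425, 493 and 510, and 1590, 1584 and 1567 in Col-0. NCED3, the rate-limiting enzyme of synthesis under drought, had 408, 430 and 401 in ibm1-1, against 194, 214 and 160 in Col-0, and CYP707A1, which breaks the hormone down, fell by 1.24. In the ethylene list 3 of 24 were higher and 4 lower, including EBF2, which targets the factor EIN3 for degradation, at -1.15 and the response factor RRTF1 at -2.39. Jasmonate genes counted 11 lower and 0 higher of 28, with OPR3, an enzyme of its synthesis, at 1522, 1566 and 1577 in ibm1-1, against 4705, 4924 and 4973 in Col-0.

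Several genes that plants induce when iron is short were higher in ibm1-1. FRO2 reduces iron at the root surface, IRT1 carries it into the cell, and nicotianamine synthases (NAS) make the chelator that moves it through the plant. Of 30 iron genes tested, with genes of iron storage among them, 10 were called higher and 0 lower, with a median of 0.52. By adjusted p alone 23 were above Col-0 and 4 below. IRT1 had 279, 274 and 277 normalized counts in ibm1-1, against 97.6, 93.4 and 80.5 in Col-0, a log2 fold change of 1.61 ± 0.11 (SE, adjusted p = 1.23e-13). FRO2 had 307, 326 and 290 in ibm1-1, against 131, 113 and 113 in Col-0. NAS2 had 202, 192 and 174 in ibm1-1, against 23.9, 37.4 and 26.2 in Col-0, and was 6.61-fold higher. None of these overlapped between genotypes. CYP82C4, an enzyme of the coumarins that roots secrete to mobilise iron, had 115, 117 and 101 in ibm1-1, against 23.9, 23.7 and 26.2 in Col-0. FRO7, the reductase of the chloroplast, had 2822, 2807 and 2860 in ibm1-1, against 1081, 1127 and 1134 in Col-0. Ferritins store iron and are not uptake genes. The ferritin gene FER2 rose by 1.92 on the log2 scale, while FER3 had a log2 fold change of -0.41, within the 2-fold limit. NAS1 and the dioxygenase gene AT3G12900 rose too, as did AT1G47400 and AT1G47395, by 1.73 and 2.36 on the log2 scale.

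Sulfur genes that were called moved the same way. APS reductases (APR) carry out the key step of sulfate reduction, and SDI and LSU genes are markers of low sulfur. Of 33 tested, 8 were called higher and 0 lower, with a median of 0.29. By adjusted p alone 21 were above Col-0 and 4 below, APS3 furthest at -0.90. APR1 had 3103, 2962 and 3039 normalized counts in ibm1-1, against 1117, 1085 and 1074 in Col-0, and APR3 and APR2 rose by 1.22 and 1.05. ATSDI1 had 95.4, 116 and 94.7 in ibm1-1, against 13.8, 11.2 and 17.1 in Col-0, 7.12-fold higher. LSU1 had 36.0, 42.3 and 34.1 in ibm1-1, against 2.76, 4.98 and 2.01 in Col-0. LSU1 and ATSDI1 thus had larger fold changes than any of the reductases. Lists for other nutrients were mixed. Of 26 nitrate genes 1 was higher and 2 lower, and of 19 phosphate genes 2 were higher and 1 lower. In the phosphate list RNS1, a secreted ribonuclease, had 55.5, 78.9 and 50.2 in ibm1-1, against 8.28, 4.98 and 12.1 in Col-0, while AT5G03545, annotated as expressed in phosphate starvation, had 15.6, 16.9 and 26.5, against 127, 136 and 109. Sugar carriers counted 3 higher and 3 lower of 22. STP1, the main monosaccharide importer of the plasma membrane, had 3574, 3773 and 3658 in ibm1-1, against 10318, 10361 and 10464 in Col-0, while GPT2, a plastid carrier of glucose phosphate, rose by 2.75 ± 0.23.

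**Figure D4:**
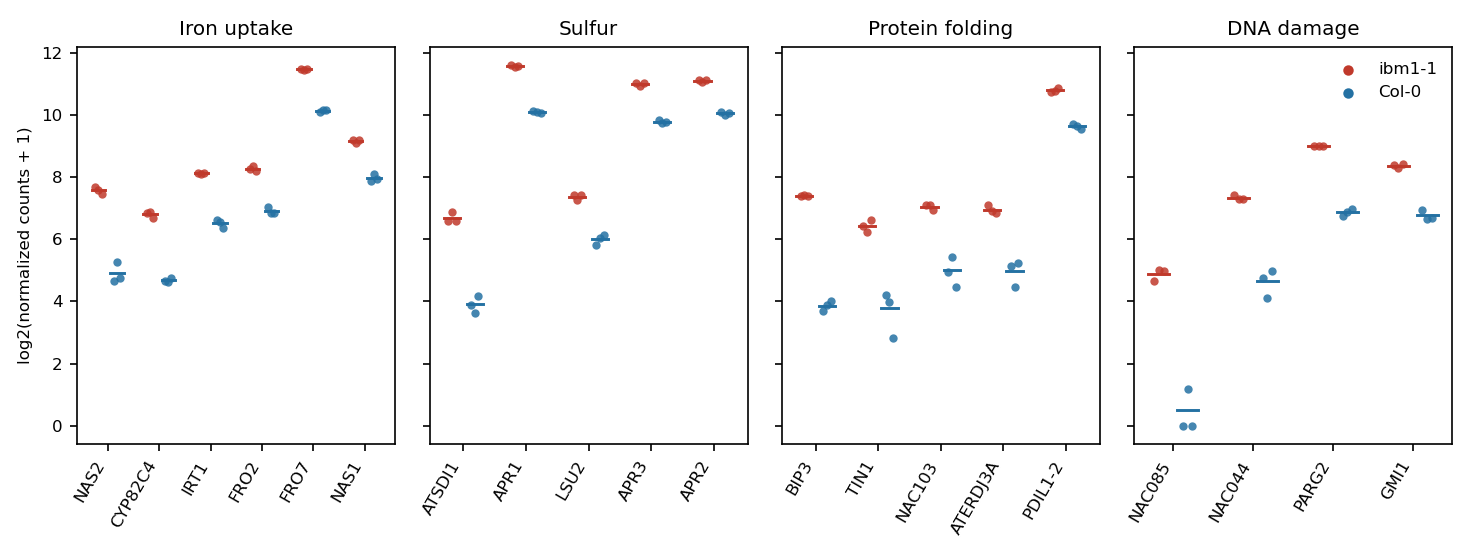
Normalized counts of iron, sulfur, protein folding and DNA damage genes, as log2(normalized counts + 1), with ibm1-1 in red left of Col-0 in blue, a point per library and a line at log2 of the mean + 1. Every gene shown is higher in each ibm1-1 library than in any Col-0 library.

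Chaperones of the endoplasmic reticulum (ER) were higher as a group. When unfolded proteins collect in the ER, plants raise BiP chaperones, protein disulfide isomerases and the factor NAC103. Of 33 tested, 8 were called higher and 0 lower, with a median of 0.57, and by adjusted p alone 28 were above Col-0 and 2 below. BIP3 had 165, 169 and 168 normalized counts in ibm1-1, against 12, 13.7 and 15.1 in Col-0, and was 12.3-fold higher (log2 fold change 3.62 ± 0.18, SE, adjusted p = 1.64e-16). TIN1, named for its induction by tunicamycin, had 85.7, 73.3 and 96.6 in ibm1-1, against 17.5, 14.9 and 6.04 in Col-0. NAC103 had 135, 135 and 122 in ibm1-1, against 29.5, 42.3 and 21.1 in Col-0. PDIL1-2, a disulfide isomerase, was raised less, at 1717, 1754 and 1862, against 827, 791 and 749. Of 23 heat shock genes 6 were higher and 0 lower, among them Hsp70-2 (925, 885 and 980 in ibm1-1, against 279, 270 and 276 in Col-0) and HSP90.1 (log2 fold change 1.79 ± 0.14).

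DNA damage genes were also called higher more often than lower. NAC044 and NAC085 are factors that stop the cell cycle after DNA damage, and GMI1 and PARG2 are induced by DNA breaks. Of 17 tested, 5 were called higher and 1 lower, with a median of 0.48. NAC044 had 169, 156 and 154 normalized counts in ibm1-1, against 25.8, 16.2 and 30.2 in Col-0, a log2 fold change of 2.69 ± 0.17. PARG2 had 515, 510 and 507 in ibm1-1, against 107, 117 and 125 in Col-0. NAC085 had 24.3, 31.0 and 30.3 in ibm1-1, against 0, 1.25 and 0 in Col-0, a ratio over all counts of 82.4 (95% counting interval 14.4 to 3290). Genes of the cell cycle and DNA replication did not move with them: 0 of 35 were called, and their median was 0.13.

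Some of the 1178 genes called higher were neighbours in the order of genes tested. Counting runs of at least 4 genes that were neighbours among those tested and were called in the same direction, there were 14 runs, all higher in ibm1-1 and none lower. Higher calls were more frequent over all genes than lower ones (5.87% against 2.39%), and the number of runs to be expected was not worked out. Genes not tested may lie between members, and 1 run on chromosome 3 spanned positions 13032306 to 13488632. The longest runs held 7 genes each. On chromosome 5 (positions 7478860 to 7496990, TAIR10.1) AT5G22520, AT5G22530, AT5G22540, AT5G22545, AT5G22550, AT5G22555 and WRKY38 rose by 2.27 to 4.60 on the log2 scale. WRKY38, a transcription factor of basal defence, had 306, 287 and 287 normalized counts in ibm1-1, against 16.6, 18.7 and 21.1 in Col-0. Also on chromosome 5 (15653125 to 15693735) stood 7 germin-like genes from GLP6 to GER2, which encode small apoplastic proteins of the cupin fold. Among them AT5G39120 had 553, 565 and 541 in ibm1-1, against 36.8, 21.2 and 42.3 in Col-0.

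Runs of 6 genes were found for jacalin-related lectins on chromosome 1 (19333088 to 19366925) and for heavy metal-binding proteins on chromosome 5 (21372820 to 21387714). In the lectin run MBP1, a myrosinase-binding protein, had 2169, 2046 and 2153 normalized counts in ibm1-1, against 406, 379 and 395 in Col-0, and the 6 genes rose by 1.72 to 2.43. Close by, AT1G52130 had 193, 165 and 161 in ibm1-1, against 0, 0 and 2.01 in Col-0. In the metal-binding run AT5G52710 had 219, 211 and 212 in ibm1-1, against 5.52, 16.2 and 6.04 in Col-0, and the 6 genes rose by 1.49 to 6.41. Shorter runs held the cysteine-rich receptor-like kinases CRK36 to CRK39 with AT4G04560, CRK5 to CRK8 with EP1, and the albumin genes SESA1 to SESA4. Where a run is a tandem family (germin-like, lectin, metal-binding, receptor-like kinase and albumin genes), its members share sequence and reads may be split between copies. Other runs mix unlike genes, as the WRKY38 run does. The 6 genes flanking the WRKY38 run had log2 fold changes between -0.29 and 0.14. Beside the other runs some flanking genes were called as well, namely AT5G39240 next to the germin-like run at -1.05, AT1G52100 and AT1G52120 next to the lectin run at 2.64 and 5.59, and HSP90.1 next to the metal-binding run at 1.79.

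**Figure D5:**
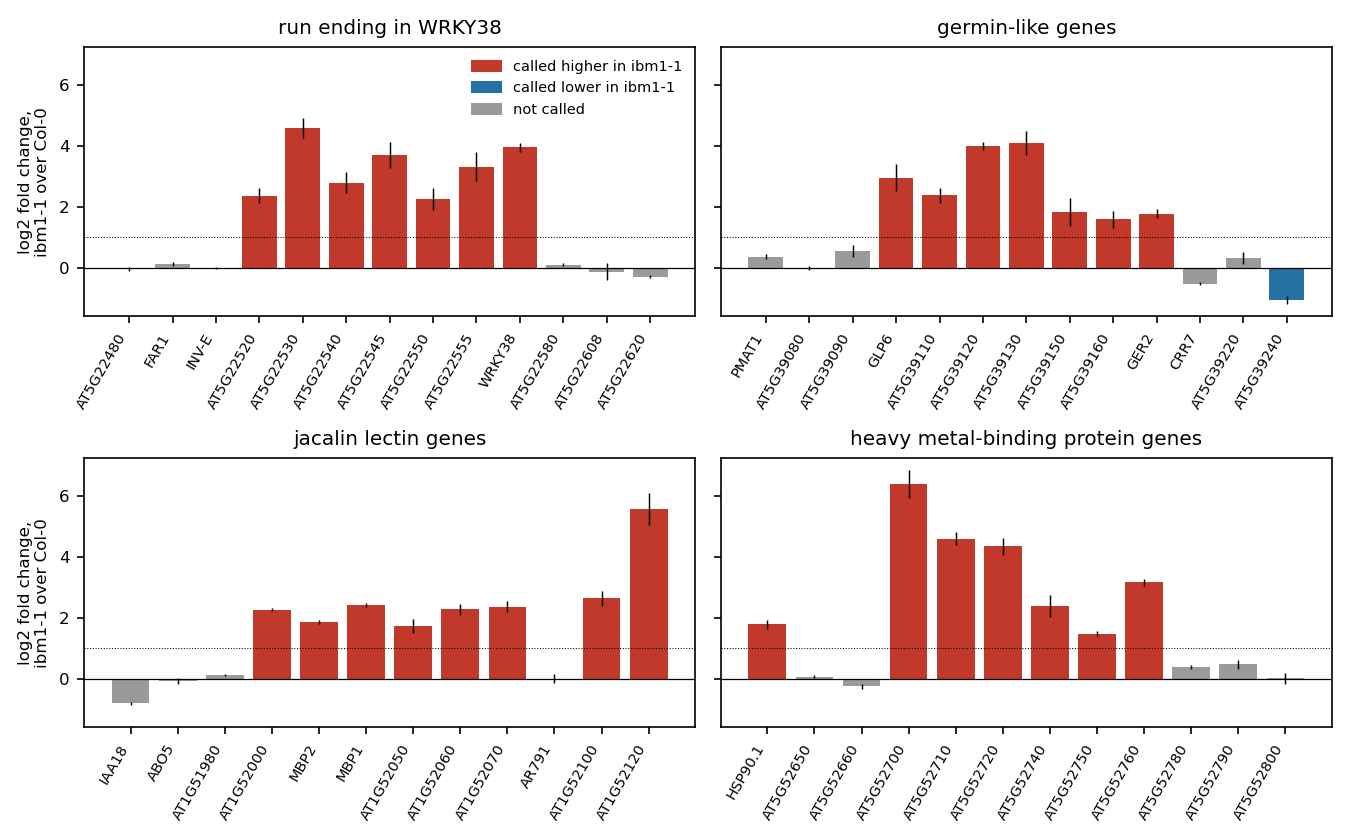
Log2 fold change, ibm1-1 over Col-0, of neighbouring tested genes in chromosome order for 4 runs, with 3 genes on either side of each run and bars of 1 SE. Red bars were called higher, blue lower and grey not called, and the dotted line marks a 2-fold rise. In the panel of the run ending in WRKY38 the 7 genes of the run lie above 2 and the 6 flanking genes lie between -0.29 and 0.14.

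Several gene families, some with members in these runs, held many calls. Jacalin-related lectins bind sugars and take part in defence and in the storage of defensive enzymes. Of 34 tested, the run included, 16 were called higher and 0 lower, with a median of 0.93. JAL23 had 1281, 1088 and 1191 normalized counts in ibm1-1, against 51.5, 67.3 and 85.6 in Col-0, and was 17.5-fold higher. AT5G49850 rose by 4.48 on the log2 scale. Of 37 heavy metal-binding proteins 8 were higher and 1 lower, and 6 of the 8 were the run on chromosome 5. Of 66 lipid transfer proteins, small proteins of the cell wall space, 16 were higher and 0 lower, and LTP2 had 1104, 1332 and 998 in ibm1-1, against 160, 154 and 184 in Col-0. Of 37 cupins and germins 13 were higher and 1 lower, of 18 berberine bridge-like oxidoreductases 8 were higher, and of 50 glutathione S-transferases 11 were higher, with 0 lower in both. Of 13 pathogenesis-related proteins, chitinases and glucanases 10 were higher and 0 lower. BGLU18, a glucosidase that can release abscisic acid from its sugar conjugate, was 1 of the 6 genes called higher among 30 glucosidases tested, with 19291, 18692 and 19458 in ibm1-1, against 5128, 4844 and 4772 in Col-0.

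Receptors and ion channels of the cell surface followed. Of 37 cysteine-rich receptor-like kinases 15 were called higher and 2 lower, of 45 receptor-like proteins 20 and 0, of 14 wall-associated kinases 5 and 0, and of 127 intracellular immune receptors of the NLR class 19 and 1. CRK6 had 683, 670 and 701 normalized counts in ibm1-1, against 49.7, 58.5 and 43.3 in Col-0. RLP23, the receptor of a peptide found in many microbial proteins, had 1043, 970 and 1076 in ibm1-1, against 88.4, 66.0 and 84.6 in Col-0. WAK3 rose by 3.03 ± 0.22. Of 17 glutamate receptor-like channels 6 were higher and 0 lower, of 41 calmodulin-like and EF-hand proteins 9 and 0, of 16 cyclic nucleotide-gated channels 2 and 1, and of 13 calcium pumps and exchangers 3 and 1. CNGC19 rose by 2.08, while DND1, a channel whose loss is known to cause constitutive defence, had 1111, 1162 and 1109 in ibm1-1, against 2646, 2511 and 2490 in Col-0. Among pumps and exchangers CAX3, of the vacuole, had 852, 909 and 899 in ibm1-1, against 124, 125 and 121 in Col-0, whereas ACA8, of the plasma membrane, had 3023, 3060 and 3134, against 7179, 6797 and 7178.

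Among transcription factors, 17 of 59 WRKY genes were called higher and 1 lower, 15 of 64 NAC genes higher and 2 lower, and 15 of 121 AP2/ERF genes higher and 13 lower. The exception among WRKY genes was WRKY18, with 911, 799 and 902 normalized counts in ibm1-1, against 3197, 3342 and 3429 in Col-0, 3.81-fold lower. Its close relatives WRKY60 and WRKY40 had log2 fold changes of 2.00 and 0.74. NAC036 had 1198, 1242 and 1254 in ibm1-1, against 193, 250 and 206 in Col-0. In the senescence list 6 of 22 were higher and 2 lower, with SAG13, a marker of early senescence, at 308, 364 and 356 in ibm1-1, against 14.7, 22.4 and 18.1 in Col-0. DIN10, a raffinose synthase-family gene that darkness induces, went the other way, with 7877, 8075 and 8008 in ibm1-1, against 21413, 20540 and 21027 in Col-0.

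The genes with the strongest reduction and no overlap between genotypes included several outside these lists. By the rule of a mean of at least 100 normalized counts, the 10 lowest log2 fold changes ran from -4.26 to -3.03. PHI-1, an EXORDIUM family member, had 48.7, 48.9 and 63.4 normalized counts in ibm1-1, against 1002, 1060 and 1025 in Col-0. JAZ7, a jasmonate repressor, and CYP94C1, which oxidises the active hormone, had log2 fold changes of -3.95 and -3.03. SOB5, an activator of cytokinin-related growth responses, was also among the 10. AT1G50040 and AT3G19680, at -3.42 and -3.16, both encode proteins of the DUF1005 family. The others were TCH4, the aspartyl protease gene AT4G16563 and the pseudogenes AT1G69140 and AT5G35935.

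Pseudogenes, which in RefSeq include many remnants of transposons, held more calls than genes at large. Of 1796 in the table, 282 were tested, and 84 were higher and 13 lower, with a median of 0.27. Most had few counts, and 29.4% of all genes below 1 CPM were called higher. A weakly expressed pseudogene can pass the filter on low counts through 1 genotype alone, and 6 of those called had no count in 1 genotype. The share called thus carries no weight of its own. AT2G15810, on chromosome 2, had 798, 838 and 750 normalized counts in ibm1-1, against 14.7, 13.7 and 19.1 in Col-0, 49.5-fold higher. It lay in a run of 4 genes with AT2G15780, SQN and the pseudogene AT2G15800. In the other direction AT1G69140, which lies close to AP1 on chromosome 1, had 62.3, 47.0 and 42.6 in ibm1-1, against 477, 457 and 542 in Col-0. Genes that set DNA methylation and histone H3K9 methylation were not called, with 1 exception in 27. That was AT5G11470, a gene with a BAH domain known to act on the processing of long introns, which had 40.9, 43.2 and 29.4 in ibm1-1, against 98.5, 106 and 102 in Col-0.

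Housekeeping and tissue lists stayed within 2-fold. None of the 22 light-harvesting genes, 28 photosystem and electron transport genes, 18 Calvin cycle genes, 18 chlorophyll synthesis genes, 245 cytosolic ribosomal proteins or 15 tubulins was called in either direction. Small shifts were nevertheless common in them by adjusted p alone, as they were over all 20082 genes tested (5109 above Col-0 and 5198 below). The adjusted p was below 0.05 with a negative log2 fold change in 25 of 28 photosystem genes, 18 of 22 light-harvesting genes and 12 of 15 tubulins. Their medians were -0.31, -0.21 and -0.21. Of 245 ribosomal protein genes 99 were above Col-0 and 32 below, with a median of 0.09. Lists of the root endodermis (10 genes), root hairs (8) and the stomatal lineage (19) held no call. Over all genes tested 5.87% were called higher and 2.39% lower, so few calls would fall in lists this short in any case. Whether the share of root and leaf cell types differed between the pools was not tested.

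Because the strand setting of the counting is not stated, reads of a gene and of one that overlaps it on the other strand may have been joined. Among the genes named here this touches RLP23, AT5G49850, EXLA1, AT3G19680, THI2.1, DIN10, APR2, XTH15, APR3, APS3, EBF2, AT2G15800, PCL1, SHY2, APR1, RCI2A, OLEO2, RRTF1, STP1, AT3G12320, COR15B, FLC, GMI1, OLEO1, SEP1, SQN, WRKY40, EEL, AT3G01570, DREB1A, ELF3, LEA7 and SPL2.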

How the data were processed

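RNA-seq of whole seedlings (total RNA, NEBNext Ultra Directional library kit) was read from 6 soil libraries, 3 per genotype. The authors deposited raw counts of reads per gene, not normalized. The submitters' processing notes name Trimmomatic 0.36, HISAT2 2.1.0, HTSeq 0.9.1 and TAIR 10, while the study's methods name SolexaQA, cutadapt, TopHat and HTSeq-count, so the aligner cannot be settled, and the strand setting is not given in the sources used here.

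Counts were filtered with filterByExpr, scaled by TMM and tested with the quasi-likelihood test of edgeR 4.0.16 (R 4.3.3), genotype being the only term. The TMM factors did not overlap, at 1.048, 1.026 and 1.052 in ibm1-1, against 0.957, 0.956 and 0.967 in Col-0. A gene was called at a fold change above 2 and a Benjamini-Hochberg adjusted p below 0.05. The SE of each log2 fold change was derived from its F statistic. The scripts were tested on simulated data. Alternatives were other scalings, filters, tests and thresholds (DESeq2 1.42.0 among them), a replicate block and leaving out each library. Symbols and promoters came from RefSeq, with 21815 of 21912 genes matched. Ratios with 1 to 3 counts in a genotype carry exact 95% intervals that cover counting error only, and a genotype with 0 counts was set to a floor of 3 counts over its libraries.

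Genes were picked for naming by rule, and not every gene picked is named in the text. Picked first were the 10 highest and 10 lowest log2 fold changes among called genes. These genes did not overlap between genotypes and averaged at least 100 normalized counts in the higher one. Picked as well were up to 4 called members per list and direction, the member most against each list, and IBM1. Other names were chosen after their values were seen. The gene lists were chosen with earlier results of these data known. The labels do not say whether equal replicate numbers mark a shared batch, and p-values measure the spread between these pools. Plants grown on medium were not used here. A further gene and a further promoter sequence are not reported here.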

Additional observations from a re-analysis of the deposited data

How the results depend on the processing

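None of the named calls changed direction under any alternative tried. With DESeq2 size factors, library size alone, no filter, the DESeq2 Wald test or 1 library left out, the counts of genes called stayed within 1.5 times of 1178 higher and 479 lower. Leaving out 1 library gave 1187 to 1226 higher, 473 to 494 lower and 739 to 755 called members of the gene lists, against 728. A mean CPM of at least 5 left 376 higher, 274 lower and 300 list members, since fewer genes were tested. A test against a 2-fold change (glmTreat) gave 694 higher and 247 lower, with 493 list members, and adjusted p alone gave 5109, 5198 and 2435. With glmTreat 77 of 358 named calls were lost, the largest loss among the alternatives. They included CBF1, DREB1A, PI, AG, SPL2, EPR1, AT3G12320, JMJD5, PRR3, NCED3, CYP707A1, GASA1 and APR2. Scaling by library size alone put the median over all genes at 0.12 on the log2 scale, and 24 of 358 named calls were then lost, SPL2, JMJD5, PRR3, CKX4 and RR16 among them, and the medians of the AP2/ERF, Calvin cycle, abscisic acid, ethylene, root endodermis and stomatal lineage lists changed sign. Same-numbered libraries did not deviate together (r = -0.0169, 0.0196 and 0.00761), and with a replicate block 1170 genes were higher and 476 lower, with 724 list members, LEA7 being the named call lost. Over all alternatives 2058 of 2408 counts of list members stayed within 1.5 times. Depth limits weakly expressed genes most, and without the filter on low counts 1418 were higher and 491 lower.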
